A study of Mus musculus with 4 samples.

Results

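Cytosolic and mitochondrial heat shock genes are described here in the livers of 4 mouse lines with an altered selenocysteine tRNA. The 9 genes in question are Dnajb1, Hsph1, Hspa4, Hspa8, Hspb1, Hsp90aa1, Hsp90ab1, Hspd1 and Hspe1. Members were the array probes annotated to one of these genes alone. Of the 9 genes, 8 had such a probe and together held 13 probes, out of 9285 named genes and 15478 probes in all. Hsp90ab1 had no probe of its own under this rule and has no value here. Hspa8 had 3 probes, Hspa4, Hsp90aa1 and Hspd1 had 2 each, and the others had 1.

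Liver RNA of each mutant line, in Cy5, was set against liver RNA of wild-type (Trsp) littermates, in Cy3, on 2-colour arrays. All animals were males of B6/FVB background, 7 to 8 weeks old, on a selenium sufficient diet. DTrsp mice lacked Trsp, the gene for the selenocysteine tRNA, in the liver. A34 and G37L mice each had 2 transgene copies of that tRNA, mutated from T34 to A34 in the first line and from A37 to G37 in the second. G37H mice had the A37 to G37 transgene in 16 copies. The labels do not give the Cre driver of the deletion, the promoter of the transgenes, or whether transgenic livers kept their own Trsp. They also place the harvest after several passages, without saying of what.

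Heat shock proteins are molecular chaperones that keep other proteins folded, refold damaged ones and prepare irreparable ones for breakdown. In the cytosol, HSP70 proteins bind exposed stretches of a client with the help of J-domain co-chaperones and release it with the help of exchange factors, HSP90 finishes the folding of kinases and receptors, and small heat shock proteins hold unfolded clients. In mitochondria, HSP60 and its lid HSP10 form a closed folding chamber. When unfolded or oxidised protein builds up, heat shock factor 1 binds heat shock elements, inverted repeats of GAA, in the promoters of many of these genes and raises their transcription.

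Each value is the authors' average, by the labels over 4 animals in DTrsp, A34 and G37L and over 3 in G37H. The decimals show that some values in each column rest on fewer arrays. Values were read here as log2 of mutant over wild type. A value of 1 is thus a 2-fold higher level in the mutant, the threshold used for counts. The spread between animals is not in the values, so no test could be run and every comparison is a description of averaged livers. The direction is likely but not stated: the dyes give it, while the sample titles put wild type first. If the ratio ran the other way, every sign below would turn. Column medians over all genes were 0.16 in DTrsp and 0.07 in A34, and -0.11 in G37L and -0.11 in G37H. Probes of the same gene differed with a pooled SD of 0.49 in DTrsp and 0.35 in A34, and 0.37 in G37L and 0.38 in G37H, over 2389 genes with several probes but no more than 5. Since whole livers were used, fewer cells of a type and less RNA per cell cannot be told apart.

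By their median, heat shock genes lay highest in DTrsp, next in G37L, and nearer to the level of all genes in A34 and G37H. The median of the 8 genes was 1.01 in DTrsp and 0.02 in A34, and 0.53 in G37L and 0.14 in G37H. Relative to the median of all genes these were 0.85, -0.05, 0.64 and 0.25. Taken gene by gene, DTrsp minus G37L had a median of 0.35, and of only 0.074 after centring on column medians. In DTrsp, 5 of 8 were at least 2-fold higher, against 3.27% of all genes. In G37L, 2 of 8 were, against 2.51% of all genes. In A34 and in G37H the count was 0 of 8, against 1.4% and 2.78% of all genes. No measured member was at least 2-fold lower in any line, against 1.62% of all genes in DTrsp and 0.452% in A34, and 3.96% in G37L and 3.1% in G37H. In DTrsp, Hsp90aa1 at 1.003, Hspd1 at 1.01 and Hsph1 at 1.05 lay just past the threshold. For Hsp90aa1 and Hspd1 the lower probe, at 0.79 and 0.62, fell short of it. The count in DTrsp depends on where 0 is set, because these genes lay near the threshold and that column as a whole lay above 0. Centred on the column median it was 2 (Dnajb1 and Hspb1), against 172 of all 9285 genes, and centred on 64 ribosomal protein genes, whose median was 0.52, it was 0, against 74. After either centring the median of the 8 genes was still positive, at 0.85 and 0.49. In G37L the same centrings gave 2 (Hsph1 and Hsp90aa1), against 301 of all genes, and 1 (Hsp90aa1), against 105, and medians of 0.64 and 0.20.

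**Figure D1:**
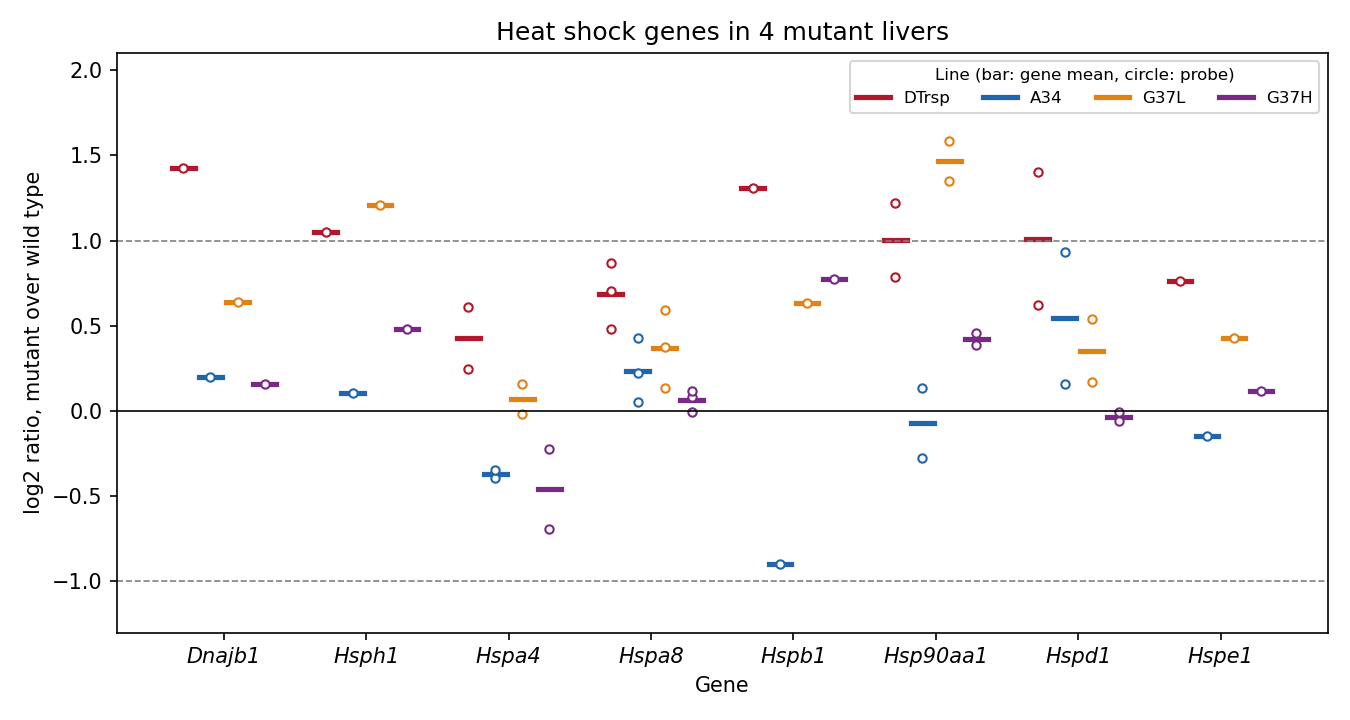
Log2 ratio of mutant over wild type (vertical axis) of 8 heat shock genes (horizontal axis) in DTrsp, A34, G37L and G37H livers. Bars are gene means, circles single probes, and dashed lines mark 2-fold. DTrsp holds the highest bar for 6 genes, and G37L for Hsph1 and Hsp90aa1, an order not counted over all genes.

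Promoter sequences are shown for 4 of the 5 genes at least 2-fold higher in DTrsp, because the heat shock element is the common feature of this gene class. They come from RefSeq, build GRCm38.p6, and run from 250 bases before to 50 after a transcription start. Of the 9 genes, 6 matched this table by symbol, with 9 windows between them, and Hspa8, Hsp90aa1 and Hsp90ab1 are named only. Capitals mark heat shock elements, searched as 2 units (GAANNTTC or TTCNNGAA) or 3 units (GAANNTTCNNGAA or TTCNNGAANNTTC), on both strands and with overlaps kept.
Dnajb1, chr8:83607925-83608224, plus strand: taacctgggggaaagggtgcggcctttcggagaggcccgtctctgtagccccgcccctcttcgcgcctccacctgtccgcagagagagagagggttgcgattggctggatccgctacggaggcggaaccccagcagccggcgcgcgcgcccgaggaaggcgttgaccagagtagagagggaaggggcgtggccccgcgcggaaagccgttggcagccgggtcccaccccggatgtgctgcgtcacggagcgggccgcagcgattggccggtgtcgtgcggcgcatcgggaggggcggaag
Hspb1, chr5:135887669-135887968, plus strand: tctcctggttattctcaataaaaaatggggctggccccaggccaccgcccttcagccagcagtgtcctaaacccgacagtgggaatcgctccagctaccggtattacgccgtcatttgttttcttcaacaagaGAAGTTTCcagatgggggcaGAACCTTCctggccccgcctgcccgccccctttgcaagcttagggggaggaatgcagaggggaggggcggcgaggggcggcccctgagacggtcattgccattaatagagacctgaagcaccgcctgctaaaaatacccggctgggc
Hsph1, chr5:149636287-149636586, minus strand: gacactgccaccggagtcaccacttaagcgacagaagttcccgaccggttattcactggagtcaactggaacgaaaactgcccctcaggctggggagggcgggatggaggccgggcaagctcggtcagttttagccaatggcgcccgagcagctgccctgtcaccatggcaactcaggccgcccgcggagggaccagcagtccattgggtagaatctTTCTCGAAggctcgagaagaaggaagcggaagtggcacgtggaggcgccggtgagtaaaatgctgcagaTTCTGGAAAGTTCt
Hspd1, chr1:55087883-55088182, minus strand: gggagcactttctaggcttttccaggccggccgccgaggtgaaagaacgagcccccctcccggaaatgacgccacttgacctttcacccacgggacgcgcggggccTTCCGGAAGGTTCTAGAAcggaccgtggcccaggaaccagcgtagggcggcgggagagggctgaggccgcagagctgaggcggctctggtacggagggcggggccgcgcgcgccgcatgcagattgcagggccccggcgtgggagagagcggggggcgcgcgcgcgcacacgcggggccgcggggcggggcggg
A match of 2 units was found for 4 of the 6 genes, Hspb1, Hsph1, Hspd1 and Hspe1, against 17.0% of all 27025 genes in the table and 15.1% of its 32851 promoter windows of this length. A match of 3 units was found for Hsph1, Hspd1 and Hspe1, against 0.662% of all genes in the table and 0.603% of windows. In Hspb1 the matches lay at bases -117 to -110 and -97 to -90 from the start, and in Hsph1 at -33 to -26 and, past the start, at 37 to 49. Neither window of Dnajb1, nor that of Hspa4, held these letters.

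Hspd1 and Hspe1 stand head to head on chromosome 1, and their windows shared 285 bases. Both hold the same run of elements at chr1:55088059-55088076, shown here in the direction of each gene to make the shared block visible.
Hspd1, minus strand: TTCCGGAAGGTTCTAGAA
Hspe1, plus strand: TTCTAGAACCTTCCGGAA
This block of 18 bases lay at -144 to -127 from this Hspd1 start and at -89 to -72 from the Hspe1 start. The start sites lay 216 bases apart. A further Hspd1 window, over another start, held no match. The core of the antioxidant response element, TGACNNNGC or GCNNNGTCA, which NRF2 binds, was found at 2 places in Hsph1 and 1 in Dnajb1, and in 12.4% of all windows. A match is a description of letters, and no factor's binding was measured.

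Dnajb1, the J-domain co-chaperone HSP40 that hands clients to HSP70, was the highest of the 8 genes in DTrsp. Its log2 ratio was 1.43 in DTrsp and 0.20 in A34, and 0.64 in G37L and 0.16 in G37H. The value in DTrsp is a 2.69-fold higher level, with 89 of 9285 genes above it. In G37L, 586 genes lay above Dnajb1, while in A34 and G37H its values, carried by 1 probe, were smaller than the spread between probes of a gene.

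Hsph1 and Hspa4 belong to the HSP110 family, exchange factors that make HSP70 let go of its client. Hsph1 was at 1.05 in DTrsp and 0.10 in A34, and 1.21 in G37L and 0.48 in G37H. It was thus more than 2-fold higher in 2 lines, and with 1 probe the values of DTrsp and G37L lie closer together than probes of a gene usually do. Hspa4 was the lowest of the 8 in DTrsp at 0.43, in G37L at 0.07 and in G37H at -0.46, and stood at -0.37 in A34. Its 2 probes read 0.61 and 0.24 in DTrsp, -0.39 and -0.35 in A34, -0.02 and 0.16 in G37L, and -0.69 and -0.22 in G37H. Both were thus above 0 in DTrsp and below 0 in A34 and G37H. In A34, 8560 of 9285 genes lay above Hspa4. Of the pair of exchange factors, Hsph1 is the one that heat induces strongly.

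Hspa8, the constitutive HSP70 known as HSC70, was moderately higher in DTrsp. Its gene means were 0.68 in DTrsp and 0.23 in A34, and 0.37 in G37L and 0.06 in G37H. Its 3 probes ran between 0.48 and 0.87 in DTrsp, 0.05 and 0.43 in A34, 0.13 and 0.59 in G37L, and -0.01 and 0.12 in G37H. The lowest probe in DTrsp was above the highest in A34 and G37H, but overlapped the range in G37L. The inducible HSP70 genes Hspa1a and Hspa1b had no named probe.

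Hspb1, the small heat shock protein HSP25, varied most between lines. Its log2 ratio was 1.31 in DTrsp and -0.90 in A34, and 0.63 in G37L and 0.77 in G37H. The first of these is a 2.47-fold higher level, and the second a 1.86-fold lower one. In DTrsp 117 genes lay above Hspb1, and in A34 9220 of 9285 did. Hspb1 was the highest of the 8 genes in G37H and the lowest of the 8 in A34. It had 1 probe. The value in A34 had no fraction of the 4-decimal step, as 30.7% of values in that column had, so it can come from a single array or from an average.

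Hsp90aa1, the inducible HSP90 that completes the folding of kinases and steroid receptors, was the highest of the 8 in G37L. Its gene means were 1.003 in DTrsp and -0.07 in A34, and 1.47 in G37L and 0.42 in G37H. Its probes read 0.79 and 1.22 in DTrsp, 0.13 and -0.28 in A34, 1.58 and 1.35 in G37L, and 0.39 and 0.45 in G37H. Both probes were past 2-fold in G37L and 1 of 2 in DTrsp, and in A34 they lay on either side of 0. In G37L, 77 genes lay above Hsp90aa1, which stood at a 2.76-fold higher level. Its close relative Hsp90ab1 is alike in sequence, and whether these probes also read it was not tested.

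Hspd1 and Hspe1 encode HSP60 and HSP10, the chamber and lid of the mitochondrial chaperonin. Hspd1 was at 1.01 in DTrsp and 0.55 in A34, and 0.35 in G37L and -0.03 in G37H. Its 2 probes disagreed, at 1.40 and 0.62 in DTrsp, 0.16 and 0.93 in A34, 0.17 and 0.54 in G37L, and -0.01 and -0.06 in G37H. The probe that was higher in DTrsp was the lower one in A34 and G37L, so the order of DTrsp and A34 for Hspd1 depends on the probe. Hspe1, with 1 probe, was at 0.76 in DTrsp and -0.15 in A34, and 0.43 in G37L and 0.12 in G37H. Both genes were thus at least 1.5-fold higher in DTrsp and less than that in the other lines.

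**Figure D2:**
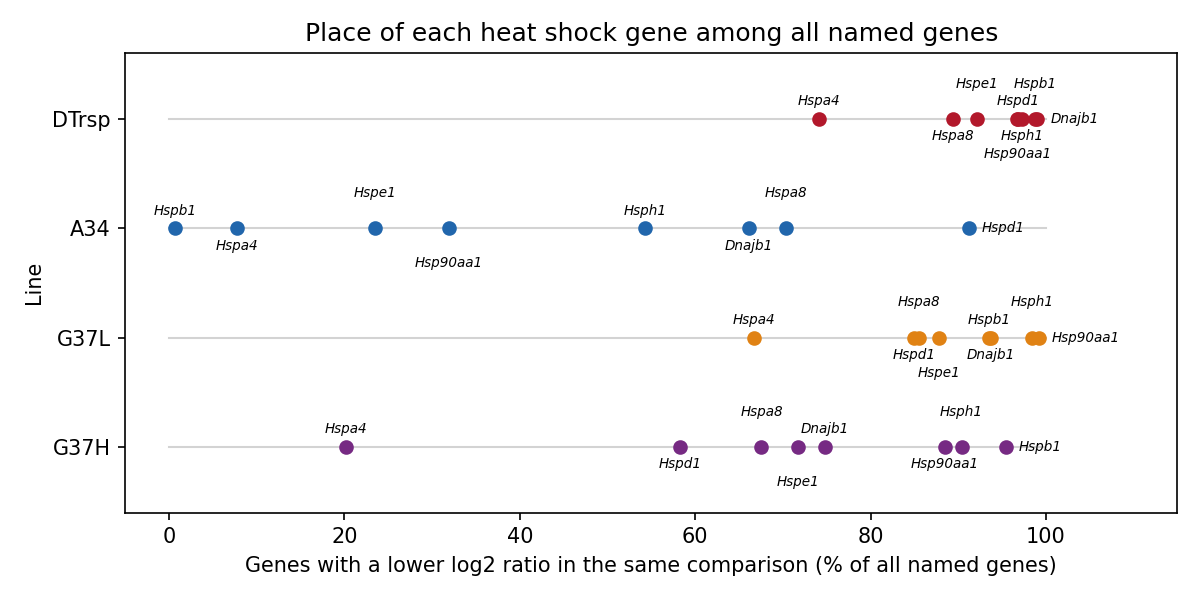
Place of each of the 8 heat shock genes among 9285 named genes, as the percent of genes with a lower log2 ratio in the same comparison (horizontal axis), by line (vertical axis). In DTrsp the genes lie between 74.1% (Hspa4) and 99.0% (Dnajb1), in G37L between 66.7% and 99.2%, and in A34 they spread from 0.689% (Hspb1) to 91.2% (Hspd1).

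Set against all genes of the same column, all 8 were above the column median in DTrsp and G37L, 4 in A34 and 7 in G37H. At a 1.5-fold threshold, 7 of 8 were higher and 0 lower in DTrsp, against 15.6% and 6.96% of all genes. In G37L, 4 of 8 were higher and 0 lower, against 7.45% and 15.3%. In A34, 0 were higher and 1 lower (Hspb1), against 7.6% and 2.65% of all genes, and in G37H 1 was higher (Hspb1) and 0 lower, against 7.3% and 13.1%. The plot of places among all genes shows the 6 genes other than Hspa4 and Hspa8 above 92% in DTrsp. By compartment, the 6 cytosolic genes had a median of 1.03 in DTrsp and 0.02 in A34, and 0.64 in G37L and 0.29 in G37H. The 2 mitochondrial genes had 0.89, 0.20, 0.39 and 0.04 in the same order of lines. Of the 8 genes, 6 were highest in DTrsp and 2 in G37L, while 4 were lowest in A34 and 4 in G37H. The same shares over all genes were not counted, and DTrsp also had the highest column median, at 0.16.

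Differences between lines were taken gene by gene as log2 ratio minus log2 ratio. Whether the comparisons share wild-type animals is not given. DTrsp minus A34 had a median of 0.93 over the 8 genes, against 0.11 over all genes. In DTrsp, 3 of 8 genes were 2-fold or more above A34 (Hspb1 at 2.20, Dnajb1 at 1.23 and Hsp90aa1 at 1.07), against 4.09% of all genes, and 0 were 2-fold lower in DTrsp, against 4.48%. All 8 gene means gave a positive difference, the smallest being Hspa8 at 0.45. For Hspd1 the probes disagreed, at 1.40 and 0.62 in DTrsp and at 0.16 and 0.93 in A34. The share of all genes with a positive difference was not counted. DTrsp minus G37H had a median of 0.63, against 0.29 over all genes, with 2 of 8 at least 2-fold higher (Dnajb1 by 1.27 and Hspd1 by 1.04) and 0 lower, against 8.93% and 4.26% of all genes. Both counts rest on gene means. The lower DTrsp probe was less than 2-fold apart for Hsp90aa1 (0.79, against 0.13 in A34) and Hspd1 (0.62, against -0.06 in G37H). DTrsp minus G37L had a median of 0.35, against 0.28 over all genes, and 0 of 8 were 2-fold apart, against 10.1% higher and 3.96% lower of all genes. Within that difference Dnajb1 was at 0.79, Hspb1 at 0.67 and Hspd1 at 0.66, whereas Hsp90aa1 was at -0.46 and Hsph1 at -0.15.

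Between the transgenic lines the genes separated too. G37L minus A34 had a median of 0.51, against -0.20 over all genes, with 3 of 8 at least 2-fold higher in G37L (Hsp90aa1 by 1.54, Hspb1 by 1.53 and Hsph1 by 1.10) and 0 lower, against 2.55% and 7.07% of all genes. Hspd1, at -0.19, was the exception in direction, through its probe at 0.54 in G37L and 0.93 in A34. Its other probe was at 0.17 and 0.16. With the same mutation at 16 copies against 2, G37H minus G37L had a median of -0.44, against -0.01 over all genes. Of the 8, 7 were lower in G37H, 1 of them by 2-fold or more (Hsp90aa1 at -1.04), against 2.67% of all genes. Hspb1 was at 0.14, and 0 were 2-fold higher, against 4.07%. G37H minus A34 had a median of 0.11, against -0.19 over all genes, with Hspb1 alone past 2-fold at 1.67, against 2.72% higher and 5.63% lower of all genes.

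Other genes of the heat shock response did not all lie with the 8. Of 18 further inducible heat shock genes, 8 were measured, with medians of 0.29 in DTrsp and 0.23 in A34, and 0.48 in G37L and 0.13 in G37H. The haem oxygenase Hmox1, which NRF2 also controls, was at 4.03 in DTrsp and 0.62 in A34, and 1.27 in G37L and 1.09 in G37H. It was the 1 gene of the list past 2-fold in DTrsp, where 3.27% of all genes were 2-fold higher and 1.62% lower. Next came Bag3, an HSP70 co-chaperone of protein clearance, at 0.87, the small heat shock gene Hspb8 at 0.74 and the J-domain gene Dnaja1 at 0.58. In G37L, Dnajb5 at 1.33 joined Hmox1, so 2 of the 8 were 2-fold higher, against 2.51% of all genes. They were followed by Hspb8 at 0.70 and Dnaja1 at 0.65. In G37H Hmox1 alone was 2-fold higher, against 2.78% of all genes. In A34 these 4 genes, Dnajb5, Hmox1, Hspb8 and Dnaja1, were at 0.71, 0.62, 0.37 and 0.10, and Bag3 was at -0.34. In DTrsp, 3 of the 8 were below 0, Dnajb5 at -0.26, Dnajb4 at -0.14 and Cryab at -0.12. Dnajb4, a J-domain gene with 3 probes, was below 0 in the other lines too, at -0.34 in A34, -0.51 in G37L and -0.72 in G37H. Hsf1 had no named probe. The related factor Hsf2 was at 0.74 in DTrsp and 0.18 in A34, and 0.58 in G37L and 0.23 in G37H, and Hsbp1, a protein that binds heat shock factor 1, at 0.75, 0.13, 0.10 and 0.11.

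Co-chaperones of HSP70 and HSP90 as a list stayed near all genes. The 26 measured of 28 had medians of 0.32 in DTrsp and 0.09 in A34, and -0.05 in G37L and -0.12 in G37H. In DTrsp 1 of 26 was at least 2-fold higher, the membrane-bound immunophilin Fkbp8 at 1.12, and 0 were lower, against 3.27% and 1.62% of all genes. Next in size there were Pdcd5 at -0.92, Bag2 at -0.86 and the J-domain gene Dnajb2 at 0.83, so the list ran both ways. Stip1, which bridges HSP70 and HSP90, was at 0.80 in DTrsp and 0.92 in A34, and 0.41 in G37L and -0.03 in G37H. Fkbp5, an HSP90 co-chaperone that glucocorticoids induce, was at 0.52 in DTrsp and -0.38 in A34, and 1.08 in G37L and 1.92 in G37H. Bag2, an HSP70 exchange factor, was at -0.86 in DTrsp and 0.01 in A34, and 0.90 in G37L and 1.59 in G37H. Fkbp5 and Bag2 were both highest in G37H. The 11 measured genes of the chaperonin TRiC and of prefoldin, which fold actin and tubulin, had medians of 0.33, 0.17, 0.22 and 0.00018 in DTrsp, A34, G37L and G37H, with 0 of 11 past 2-fold in any of them. Among all genes, 1.4% (A34) to 3.27% (DTrsp) were 2-fold higher and 0.452% (A34) to 3.96% (G37L) lower.

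Other mitochondrial chaperones and proteases had list medians below the values of Hspd1 and Hspe1 in DTrsp and G37L. The 16 measured of 17 had medians of 0.29 in DTrsp and 0.14 in A34, and -0.24 in G37L and -0.05 in G37H. In DTrsp 2 of 16 were at least 2-fold higher, against 3.27% of all genes. These were Clpx at 1.39, the unfoldase of a matrix protease, and Hspa9 at 1.05, the mitochondrial HSP70 that passes clients to HSP60. Hspa9 was at 0.12 in A34, 0.27 in G37L and -0.07 in G37H, and Clpx at 0.22, 0.47 and 1.40. The exchange factors of Hspa9 did not follow it in DTrsp, where Grpel1 was at -0.15 and Grpel2 at 0.06. In G37L, Grpel2 was the lowest of the list at -0.95.

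**Figure D3:**
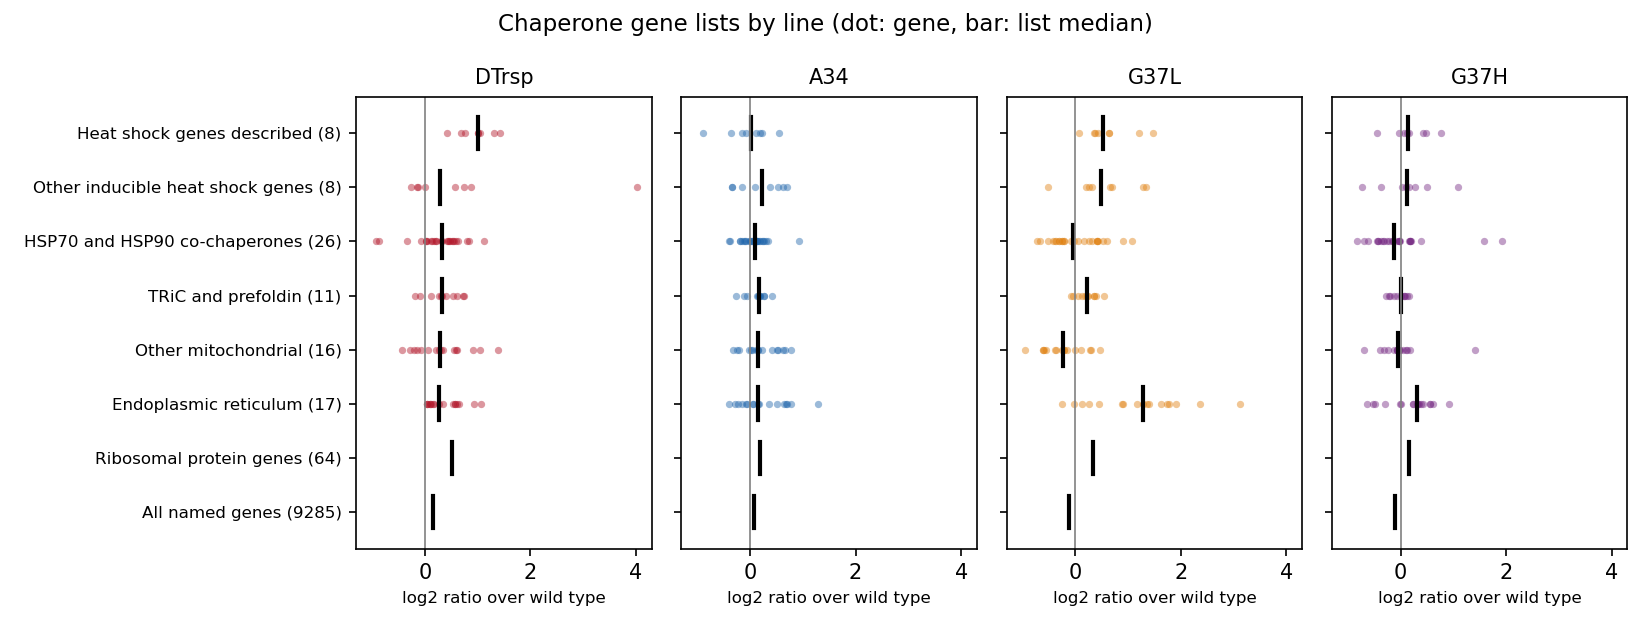
Log2 ratio over wild type (horizontal axis) of chaperone gene lists (vertical axis, number of measured genes in brackets) in 4 panels, 1 per line. Dots are genes, and black bars list medians, shown without dots for ribosomal protein genes and all genes. The 8 heat shock genes have the highest median of the lists in DTrsp (1.01), and endoplasmic reticulum chaperones in G37L (1.28).

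Chaperones of the endoplasmic reticulum, which fold secreted proteins, had a different order of lines. The 17 measured of 19 had medians of 0.27 in DTrsp and 0.16 in A34, and 1.28 in G37L and 0.31 in G37H, against 1.01, 0.02, 0.53 and 0.14 for the 8 heat shock genes. In DTrsp 1 of 17 was at least 2-fold higher, the disulphide isomerase P4hb at 1.06, in A34 1 was, Herpud1 of the degradation pathway at 1.28, and in G37L 10 of 17 were. Among all genes the shares were 3.27% in DTrsp, 1.4% in A34 and 2.51% in G37L. The HSP70 of this compartment, Hspa5, was at 0.35 in DTrsp and 1.78 in G37L, while cytosolic Hspa8 was at 0.68 and 0.37. Its HSP90, Hsp90b1, was at 0.57 in DTrsp and 1.17 in G37L, while cytosolic Hsp90aa1 was at 1.003 and 1.47. In both compartments the HSP90 gene was thus higher in G37L than in DTrsp, whereas of the HSP70 genes Hspa5 was higher and Hspa8 lower in G37L than in DTrsp. Creld2 and Manf, secreted on stress of this compartment, were at 0.04 and 0.10 in DTrsp and at 3.11 and 2.35 in G37L. The others past 2-fold in G37L were Sdf2l1 at 1.90, Dnajb11 at 1.73, Hyou1 at 1.62, Dnajb9 at 1.39, Pdia3 at 1.35 and Pdia4 at 1.28. The difference between the lists was not tested, since genes are not replicates of a liver.

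**Figure D4:**
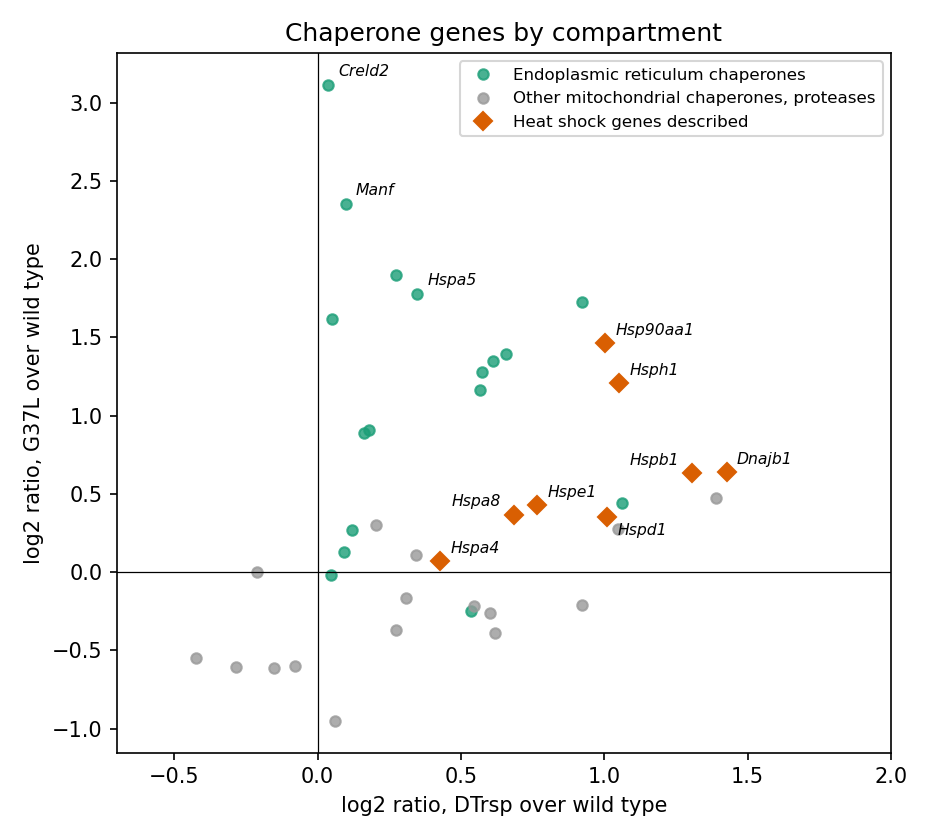
Log2 ratio in G37L (vertical axis) against that in DTrsp (horizontal axis), each over wild type, for the 8 heat shock genes (diamonds), 17 endoplasmic reticulum chaperones and 16 other mitochondrial genes (circles). Endoplasmic reticulum genes such as Creld2 at 0.04 and 3.11 stand at the upper left, and Dnajb1 at 1.43 and 0.64 stands at the right.

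The genes with the most similar values were sought by the Euclidean distance of their 4 log2 ratios from the mean of the 8 genes, which was 0.96 in DTrsp and -0.05 in A34, and 0.65 in G37L and 0.19 in G37H. Of the genes outside the 8, the 6 nearest were Rab2a, Sec11a, Psmd14, Wasl, Prr13 and Rnf113a2, at distances between 0.12 and 0.21. Rab2a, a GTPase of transport between the endoplasmic reticulum and the Golgi, stood at 0.93, 0.06, 0.62 and 0.18. Sec11a, a subunit of signal peptidase, stood at 0.94, -0.06, 0.59 and 0.31, and Psmd14, a proteasome lid subunit, at 0.90, -0.12, 0.59 and 0.08. The 8 genes themselves lay between 0.32 (Hspe1) and 1.08 (Hspb1) from their mean. The 6 were picked for small distance and the 8 were not, so comparing these distances does not show how alike the 8 are.

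Cell type markers also differed between the lines, and their part in the heat shock values was not tested. The 12 measured hepatocyte markers had medians of 0.52 in DTrsp and 0.41 in A34, and 0.57 in G37L and 0.63 in G37H, with 11, 11, 11 and 10 of 12 above 0. The 12 Kupffer cell and macrophage markers had medians of 0.13, 0.65, 0.73 and 0.53, with 6, 12, 12 and 11 above 0. The 6 endothelial markers had medians of 0.64, 0.30, -0.00065 and 0.38, and the 8 stellate cell and fibroblast markers -0.46, 0.24, -0.02 and -0.12. The 3 erythroid markers had medians of 1.13, 0.33, 0.27 and 0.18, with 2, 3, 2 and 3 above 0, and Alas2 differed from both globin genes in DTrsp and G37L. Hba-a1 was at 1.13 in DTrsp and 0.49 in A34, and 0.43 in G37L and 0.27 in G37H. Hbb-b1 was at 1.37 in DTrsp and 0.16 in A34, and 0.27 in G37L and 0.18 in G37H. Alas2 was at -0.15 in DTrsp and 0.33 in A34, and -1.25 in G37L and 0.06 in G37H. No signal intensities were used, so levels of these markers cannot be given. Reference housekeeping genes had medians of 0.52 in DTrsp and 0.22 in A34, and 0.14 in G37L and -0.10 in G37H, over 14 genes.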

How the data were processed

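Two-colour array data of mouse liver were used as deposited. Per the labels' protocols, 15 µg of Trizol-extracted total RNA was copied into cDNA from oligo-dT and coupled to Cy3 or Cy5. The deposited values are log ratios averaged by the authors over biological replicates, 1 column per comparison, and were read as log2 of Cy5 over Cy3. The base of the logarithm, background correction, normalization, spot filter and dye swaps have no statement in the labels used here. In the decimals of the values, 0 of 13 member probes had a step divided by 3 in DTrsp, A34 or G37L. In the same order of lines, 5, 3 and 4 had no fraction of the 4-decimal step. Over all probes, 14.0% in DTrsp, 13.5% in A34 and 5.77% in G37L had a step divided by 3, which 4 arrays cannot give. In G37H, 14.4% of all probes but 0 of 13 member probes had a step divided by 2, which 3 arrays cannot give. Such values, among them Bag2 in DTrsp and Dnajb5 in A34, rest on fewer arrays than the labels state.

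Of 15478 probes, 12984 were named through the platform's gene identifier and the gene table of GRCm38.p6, 63 kept the annotation's symbol, 110 had several genes and 2321 were not listed. Probes of a gene were averaged, giving 9285 genes with 0 missing values. A gene counted where it was at least 2-fold from 0. No test was run, since each group is 1 averaged column, and the number of arrays limits the precision. Named genes are all members, from each chaperone list the genes past 2-fold and, beyond these, at most the 4 with the largest absolute values in a comparison, not all of which are printed, Hsf2 and Hsbp1, and the 6 genes nearest in profile. Grpel1, Grpel2 in DTrsp, Cryab and Dnajb4 in DTrsp, the erythroid markers and values of a named gene in further lines are given beside these for comparison and were chosen after their values were seen. Members and lists were chosen with earlier results of these data known. Averaging and counting were tested on simulated data. Values were recomputed at 1.5-fold and 3-fold thresholds, with centring on the column median or on ribosomal protein genes, the median of probes, single probes, natural logs, means, scaling to the spread of DTrsp and omission of 1 member gene. Python 3.11.15, pandas 2.3.3 and numpy 2.4.6 were used.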

Additional observations from a re-analysis of the deposited data

Results flagged for a closer look

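Hspb1 was the only one of the 8 heat shock genes at least 1.5-fold from 0 in opposite directions in 2 lines. The share of all genes that meet this rule was not counted. Its log2 ratio in A34, -0.90, lay opposite to those in the 3 other lines. The differences were 2.20 for DTrsp minus A34, 1.53 for G37L minus A34 and 1.67 for G37H minus A34. They rest on 1 probe and on averages over animals, and they were not tested.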

How the results depend on the processing

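No member gene could change direction where it was at least 2-fold from 0, so its sign was not put to a test by these settings. The largest shift of zero was 0.52 (DTrsp), scaling keeps the sign, and all probes of these genes lay above 0 there. Of 146 recomputed values that answer a comparison, 124 stayed within 0.25 (log2) of the reported value or, for counts, within 1.5 times, and 22 moved. This tally does not measure stability, since many of the values are counts of 0 that stayed 0. Counts of single probes were also compared by number and not by share, such as 5 of 13 probes with 5 of 8 genes at least 2-fold higher in DTrsp. Centred on ribosomal protein genes, the median of the 8 genes was 0.49 in DTrsp and 0.20 in G37L, the genes at least 2-fold higher numbered 0 in DTrsp (74 of all genes) and 1 in G37L (105 of all), and those lower in A34 numbered 1 (101 of all). The median difference was then 0.61 for DTrsp minus A34 and 0.28 for DTrsp minus G37H. Centred on column medians, 2 genes were at least 2-fold higher in DTrsp, and the median difference was 0.074 for DTrsp minus G37L and 0.36 for DTrsp minus G37H. Over all genes that centring gave 172 higher and 259 lower in DTrsp (304 and 150 as deposited), 106 and 57 in A34 (130 and 42), 301 and 253 in G37L (233 and 368), and 342 and 182 in G37H (258 and 288). Read as natural logs, the median was 1.45 in DTrsp, the median difference was 1.34 for DTrsp minus A34 and 0.92 for DTrsp minus G37H, 1 gene was lower in A34 (151 of all genes) and 1 higher in G37H (536 of all). At 1.5-fold, 4 genes were higher in G37L, 1 in G37H, and 1 lower in A34, and at 3-fold 0 were higher in DTrsp or G37L. Scaled to the spread of DTrsp, 1 gene was lower in A34. Without Hsph1 or Hsp90aa1, 1 gene was at least 2-fold higher in G37L. These shifts follow from the new zero, scale, threshold or number of genes. No paired analysis was possible because each group is 1 averaged column, and no animal could be left out.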
